A study of Homo sapiens with 6 samples.

Results

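ATF4 and 9 effectors of the integrated stress response were described in libraries labelled NCI-H69. The 10 genes, ATF4, ATF5, DDIT3, DDIT4, TRIB3, ASNS, CHAC1, SESN2, PPP1R15A and CEBPB, were taken by symbol from a table of 17170 genes, and all 10 had a value. The list was chosen by role with the TPM levels in these libraries already known, so the levels are a description and none was tested. NCI-H69 is an established small cell lung cancer line, and the series has 6 samples labelled with it. Per the labels, 3 are stable knockouts made with CRISPR/Cas9 and a guide aimed at the coding sequence of SCRMP in MIR7-3HG, and 3 controls went through the same system with a guide that has no target. All 6 were grown in RPMI-1640 with fetal bovine serum and share a batch label, and the labels do not say whether a knockout is a clone or a pool. The table's header holds the 3 column names that the labels assign to controls and 0 of the 3 that they assign to knockouts. What follows is therefore restricted to control replicates 1, 2 and 3, and the knockout is not analysed here.

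The integrated stress response joins several alarms in a single step. Kinases that sense lack of amino acids, unfolded proteins in the endoplasmic reticulum, double-stranded RNA or lack of heme phosphorylate the translation factor eIF2 on its alpha subunit, which slows protein synthesis in general and favours translation of a few messages, among them that of the transcription factor ATF4. ATF4 then drives genes of amino acid supply, redox control, restraint of growth and, with DDIT3, cell death, while PPP1R15A brings a phosphatase to eIF2 and closes the loop. Only poly(A) RNA was measured, so neither eIF2 phosphorylation nor protein is known.

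The libraries held 20941185, 22309228 and 22477571 estimated reads in control replicates 1, 2 and 3. Values are TPM, in which reads are divided by transcript length and the results scaled to the same total in every library. Levels of different genes can then be set side by side. Errors are SDs over the 3 libraries, which the labels call biological replicates without saying how far back the cultures were separate. Most markers of the neuroendocrine type that NCI-H69 is known for were near 0, which goes against the cell line label, and the identity of the cells was not tested. Of 6 neuroendocrine markers, 1 reached 1 TPM in all libraries, NCAM1 at 25.7 TPM ± 3.66, and INSM1, SYP, NEUROD1, DLL3 and CHGA lay between 0.080 and 0.717 TPM. All 6 mesenchymal markers did, with VIM at 4542 TPM ± 87.8 highest, while 1 of 5 epithelial markers (KRT8, 3.04 TPM ± 0.257), 0 of 4 measured leukocyte markers and 0 of 2 measured endothelial markers did. The summed level was 23.2 to 30.6 TPM over the neuroendocrine markers and 5519 to 5678 TPM over the mesenchymal ones. The part of this in the levels below was not tested.

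Letters of the promoters were examined because several of these genes are known to be switched on together through ATF4. The RefSeq windows (GRCh38.p14, 250 bases before to 50 after a transcript start, 1 to 3 starts a gene) covered all 10 genes and 13708 genes of the table. The core of the composite element bound by ATF4 with a C/EBP partner was searched as TGATGNAA on both strands. This core was found in 2 of the 10 genes, ASNS and CHAC1, and in 3.33% of the 13708 genes. The cyclic AMP response element TGACGTCA, which reads the same on both strands, was found in PPP1R15A and in 3.28% of genes. Among the 10, the core and the response element matched in different genes. The matches are shown in capitals with 40 bases on each side, 5′ to 3′ on the strand of the gene, because they are the only ones among the 10 genes. That of ASNS begins 68 bases before the transcript start (stretch chr7:97872429-97872516, minus strand), that of CHAC1 209 bases before it and on the opposite strand of the gene (chr15:40953222-40953309, plus strand), and that of PPP1R15A 58 bases before it (chr19:48872323-48872410, plus strand).
ASNS: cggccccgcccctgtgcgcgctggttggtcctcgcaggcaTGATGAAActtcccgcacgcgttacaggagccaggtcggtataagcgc
CHAC1: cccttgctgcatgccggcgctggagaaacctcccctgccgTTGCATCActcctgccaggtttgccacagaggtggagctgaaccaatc
PPP1R15A: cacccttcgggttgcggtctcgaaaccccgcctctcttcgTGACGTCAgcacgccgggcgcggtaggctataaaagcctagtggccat
A match is a run of letters and not a measured binding site, and the windows leave out elements farther from the start.

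The 10 transcripts ranged from abundant to moderate, and none was rare. All 10 reached 1 TPM in all 3 libraries, as did 66.5% of all genes, and all 10 also reached 10 TPM, as did 42.5%. A level of 100 TPM in all 3 libraries was reached by 7 of the 10 and by 7.78% of all genes. The median of the 10 was 705.4 TPM ± 64.7, against 6.83 TPM ± 0.461 for all genes. On the log2(TPM + 1) scale their median lay 6.52 above that of all genes. Together they held 0.585% of all TPM, a sum of 5849 TPM ± 351. The range between them was wide, since ATF4, the highest, stood 26.4-fold above SESN2, the lowest. Each rested on 1643 to 29581 estimated reads per library.

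**Figure D1:**
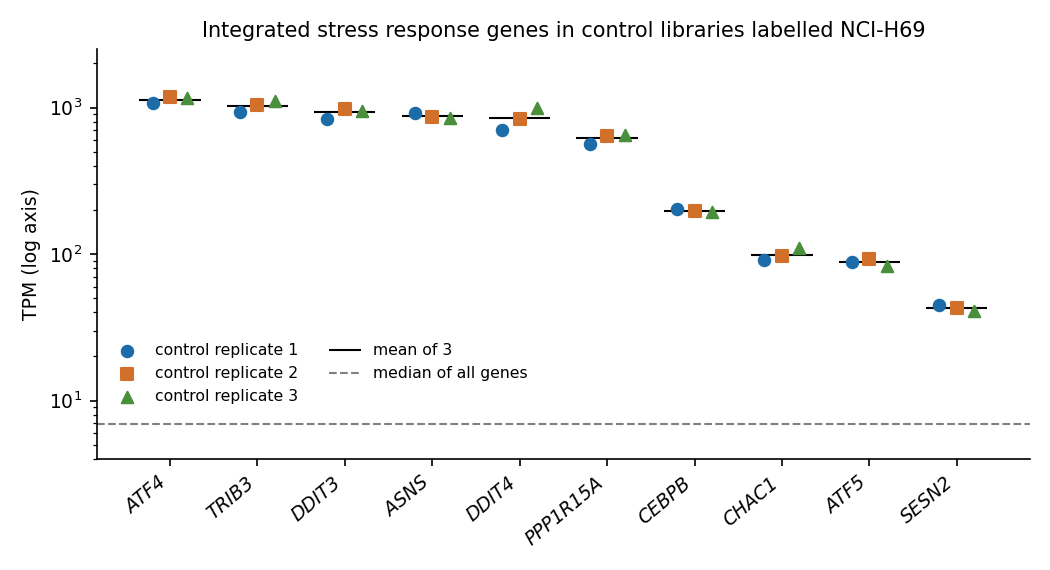
TPM on a log axis for each of the 10 genes in control replicates 1, 2 and 3 (symbols), with the mean of the 3 as a bar and the median of all genes, 6.87 TPM, as a dashed line. The genes from ATF4 to PPP1R15A sit between 564.1 and 1172 TPM, CEBPB near 198 TPM and CHAC1, ATF5 and SESN2 between 40.9 and 109.9 TPM.

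**Figure D2:**
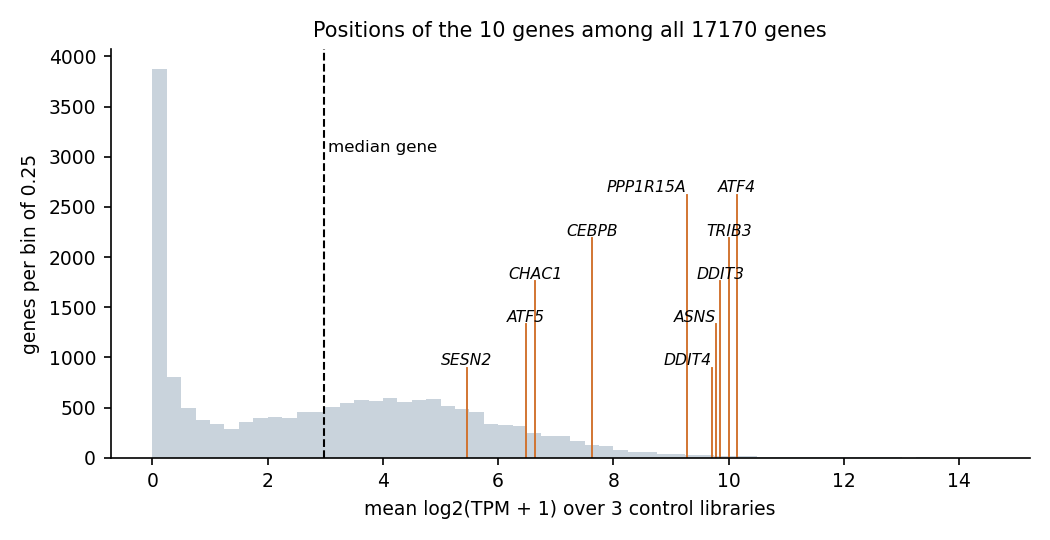
Histogram of the mean log2(TPM + 1) of all 17170 genes in bins of 0.25, with the 10 genes as vertical lines (line height has no meaning) and the median gene dashed. Every one of the 10 lies right of the median gene, SESN2 at 5.46 and ATF4 at 10.15.

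ATF4, the transcription factor at the centre of the response (chromosome 22, 39520559 to 39522686, RefSeq GRCh38.p14), had 1071, 1172 and 1154 TPM. It ranked 123 among all genes at 1132 TPM ± 53.6, and the libraries lay close together. ATF4 alone made up 44.5% ± 0.451 of the summed TPM of 13 ATF and CREB factors. The factor next to it in this family was ATF3, a repressor and activator induced by many stresses, with 729.4, 851.1 and 923.0 TPM. ATF6, the factor of another arm of the unfolded protein response, came next at 129.0 TPM ± 11.2, and CREB3L1 was lowest at 0.413 TPM ± 0.178. Among the 5 genes nearest to ATF4 over the 3 libraries, by the Euclidean distance of log2(TPM + 1), were RPS23 (distance 0.07), MTHFD2 (0.09), RPS15A (0.10) and ID3 (0.11). This measure mainly finds genes of equal level. GENCODE names 4 pseudogenes of ATF4 and 4 of ASNS, which could take or lend reads.

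ATF5, a relative of ATF4 known from the mitochondrial unfolded protein response (chromosome 19, 49928906 to 49933935), stood far below it. Its values were 88.4, 92.6 and 83.2 TPM, a mean of 88.1 TPM ± 4.68 at rank 1595. The ratio of ATF5 to ATF4 within a library was 0.0779 ± 0.00528. ATF5 overlaps NUP62 and IL4I1 on the opposite strand in GENCODE. The libraries keep the strand, but no source used here says whether the counting did.

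DDIT3, also known as CHOP, a C/EBP factor that promotes death in lasting stress (chromosome 12, 57516588 to 57520517), had 840.1, 984.0 and 951.8 TPM. Replicate 1 was the lowest and the other libraries lay close together. At 925.3 TPM ± 75.5 it ranked 142, and it held 65.6% ± 1.73 of the summed TPM of 5 measured C/EBP factors. Within a library DDIT3 stood at 0.816 ± 0.0287 of the level of ATF4. It overlaps MARS1 on the opposite strand, which was itself at 185.6 TPM ± 10.4. In GENCODE it also overlaps another protein-coding gene on the same strand, which could take or lend reads.

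CEBPB, a C/EBP factor that can pair with ATF4 (chromosome 20, 50190583 to 50192690), had 204.6, 196.0 and 192.9 TPM and the narrowest relative spread of the 10. Its mean of 197.8 TPM ± 6.02 was at rank 648. CEBPG, another partner of ATF4, was above it in all 3 libraries, with 224.6, 230.1 and 242.5 TPM. The lower members of the family were CEBPD at 38.6 TPM ± 3.26 and CEBPA, a factor of differentiation in several lineages, at 14.7 TPM ± 1.59.

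TRIB3, a pseudokinase that binds ATF4 and restrains it (chromosome 20, 380760 to 397559), had 935.3, 1037 and 1107 TPM and was second of the 10. Its mean was 1026 TPM ± 86.1 at rank 136. Its paralogs were much lower in every library. TRIB1 had 73.4 TPM ± 8.81 and TRIB2 2.34 TPM ± 0.179, so TRIB3 stood 14.1 ± 1.58 times as high as TRIB1 within a library and 442.5 ± 69.4 times as high as TRIB2.

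PPP1R15A, also known as GADD34, the inducible subunit that directs protein phosphatase 1 to eIF2 (chromosome 19, 48872421 to 48876058), had 564.1, 638.7 and 649.8 TPM. Its mean was 617.6 TPM ± 46.6 at rank 204. PPP1R15B, the constitutive subunit with the same role, had 77.0, 68.8 and 66.1 TPM, so the inducible form was 8.81 ± 1.31 times as high. It was also above the catalytic subunits PPP1CA (180.3 TPM ± 8.47), PPP1CC (140.3 TPM ± 5.59) and PPP1CB (100.2 TPM ± 6.73). The ranges of PPP1R15A and of these 4 genes did not overlap.

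ASNS, the enzyme that makes asparagine and whose promoter match is shown above (chromosome 7, 97851677 to 97928441), had 921.3, 857.4 and 851.7 TPM. In TPM it was highest in replicate 1, as were CEBPB and SESN2 among the 10. Its mean was 876.8 TPM ± 38.6 at rank 148. Of all genes, 42.5% reached 10 TPM and 7.78% reached 100 TPM in all libraries. Of 15 genes of amino acid and folate-linked carbon metabolism, 14 reached 10 TPM and 10 reached 100 TPM. The highest was ASS1, which makes argininosuccinate, at 1496 TPM ± 55.3. MTHFD2, of mitochondrial folate metabolism, had 1108 TPM ± 16.0. CBS, of cysteine synthesis, was lowest, listed at 0, 0.030 and 0.070 TPM from at most 2 reads. CTH, the next enzyme on that path, had 194.9 TPM ± 1.54.

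CHAC1, which breaks down glutathione (chromosome 15, 40953471 to 40956512), had 90.7, 96.7 and 109.9 TPM, a mean of 99.1 TPM ± 9.83 at rank 1423. It was 2.25 ± 0.241 times as high as CHAC2, its paralog, which had 44.2 TPM ± 3.57. CHAC1 and ASNS, which both hold the element core, had levels whose ranges did not overlap. A link between the core and the level was not tested.

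DDIT4, also known as REDD1, which restrains the growth kinase complex mTORC1 (chromosome 10, 72273924 to 72276036), varied most among the 10. It had 698.6, 829.4 and 1001 TPM, with each library well apart from the others, and a mean of 842.9 TPM ± 151 at rank 153. Its paralog DDIT4L had 7.06 TPM ± 1.24. SESN2, a leucine sensor that also restrains mTORC1 (chromosome 1, 28259518 to 28282491), had 44.9, 42.9 and 40.9 TPM and was the lowest of the 10 at 42.9 TPM ± 2.01, rank 3085. SESN2 was nevertheless the main sestrin, above SESN3 (4.17 TPM ± 0.628) and SESN1 (1.25 TPM ± 0.320) in all libraries. Among 9 other genes that hold back mTORC1 or its output, EIF4EBP1, a brake on translation initiation, was highest at 626.5 TPM ± 35.4 and CASTOR1, an arginine sensor, lowest at 2.0 TPM ± 0.0306. DEPTOR had 33.4 TPM ± 3.51 and NPRL3 18.4 TPM ± 0.746. ASNSD1, a relative of ASNS, had 70.5 TPM ± 4.58. In the GADD45 family, a set of growth arrest genes, GADD45A had 144.3 TPM ± 4.95, GADD45B 24.4 TPM ± 6.34 and GADD45G 0.363 TPM ± 0.0569.

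The order of the 10 was set against the spread. From ATF4 through TRIB3, DDIT3 and ASNS to DDIT4, each gene's range over the libraries overlapped that of the next, and these 5 could not be separated pair by pair from their neighbours by range. Within a library the order was steadier at the top, since ATF4 was above TRIB3 and TRIB3 above DDIT3 in 3 of 3 libraries, whereas DDIT3 was above ASNS in 2 and ASNS above DDIT4 in 2. DDIT4 was above PPP1R15A with no overlap, by 1.36-fold on the means. PPP1R15A was 3.12-fold above CEBPB, and CEBPB was 2.0-fold above CHAC1, both without overlap. CHAC1 and ATF5 overlapped, although CHAC1 was higher in 3 of 3 libraries, and ATF5 was 2.05-fold above SESN2 without overlap. Read counts that are not divided by length give another order, in which TRIB3 and ASNS precede ATF4 and DDIT3 comes sixth.

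Upstream of the effectors, the 4 sensing kinases had a median of 29.2 TPM ± 2.74, below that of the effectors, although EIF2AK1 was above CHAC1, ATF5 and SESN2. EIF2AK1, the kinase that responds to lack of heme and to mitochondrial stress, had 134.0, 128.1 and 121.1 TPM and held 64.0% ± 1.08 of the summed TPM of the 4 kinases. EIF2AK2, which binds double-stranded RNA, had 32.7 TPM ± 2.93. EIF2AK3, the kinase of the endoplasmic reticulum, had 25.8 TPM ± 2.94, and EIF2AK4, which senses uncharged tRNA, 13.3 TPM ± 1.66. All 4 kinases reached 10 TPM in all libraries, as did 42.5% of all genes. The order of the 4 was the same in each library. ATF4 RNA was 44.4 ± 6.72 times as high as that of EIF2AK3. Among regulators of the kinases, HSPA5, which holds EIF2AK3 inactive, had 2802 TPM ± 243, PRKRA 67.4 TPM ± 3.64, DELE1, which relays mitochondrial stress to EIF2AK1, 27.5 TPM ± 2.91 and GCN1, a partner of EIF2AK4, 13.9 TPM ± 0.788. The 8 subunits of eIF2 and of its exchange factor eIF2B all reached 10 TPM. EIF2S2, the beta subunit, was highest at 527.2 TPM ± 13.8, followed by EIF2S3 (120.6 TPM ± 3.21) and EIF2S1, the alpha subunit that is phosphorylated (90.8 TPM ± 3.85), and EIF2B1 was lowest at 31.1 TPM ± 0.788.

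**Figure D3:**
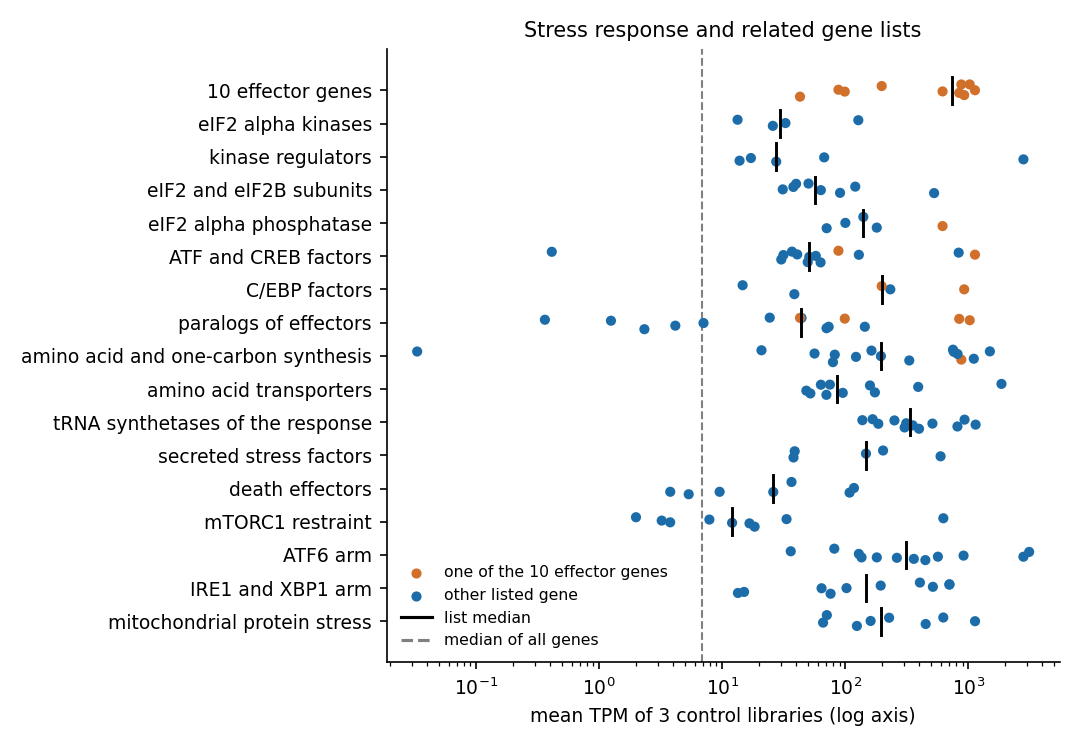
Mean TPM over the 3 control libraries on a log axis for the 10 effector genes and for each list of related genes, 1 point a gene, with list medians as black bars and the median of all genes dashed. The kinases centre on 29.2 TPM and the 10 effector genes on 730.2 TPM (median of the gene means), and the lists of tRNA synthetases and of the ATF6 arm lie between, at 333.2 and 311.7 TPM.

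Lists of tRNA synthetases, transporters and secreted factors linked to ATF4 had medians of 335.5, 85.3 and 147.4 TPM. Of the 12 tRNA synthetases of the response 12 reached 100 TPM in all libraries, a level of 7.78% of all genes, led by GARS1 (1146 TPM ± 22.1), SARS1 (931.5 TPM ± 15.8) and WARS1 (815.5 TPM ± 44.2), with LARS1 lowest at 137.8 TPM ± 13.9. Of 10 measured amino acid transporters 4 did: SLC3A2, the shared heavy chain, at 1859 TPM ± 38.3, SLC1A5 at 391.4 TPM ± 12.9, SLC38A2 at 174.2 TPM ± 23.1 and SLC7A5 at 158.8 TPM ± 6.12, and SLC6A9 was lowest at 48.3 TPM ± 3.90. Secreted factors of the response were present as well, with the stress cytokine GDF15 at 594.9 TPM ± 27.9, the hormone FGF21 at 202.9 TPM ± 21.3, the angiogenic factor VEGFA at 147.4 TPM ± 4.24 and ADM2 lowest at 38.0 TPM ± 2.27. Of the 7 listed genes of cell death, 1 reached 100 TPM in all libraries. PMAIP1, which encodes NOXA, had 117.7 TPM ± 4.06, the death receptor TNFRSF10B, a known target of DDIT3, 108.5 TPM ± 10.8, and the oxidase ERO1A 36.6 TPM ± 0.806. BCL2, listed for contrast as it opposes death, was lowest at 3.79 TPM ± 0.802.

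The neighbouring stress programmes were also expressed. As background, 42.5% of all genes reached 10 TPM and 7.78% reached 100 TPM in all libraries. All 12 genes of the ATF6 arm reached 10 TPM and 10 reached 100 TPM in all libraries, with the chaperones CALR (3119 TPM ± 304), HSPA5 and HSP90B1 (914.3 TPM ± 130) highest and DNAJC3, which restrains EIF2AK3, lowest at 36.1 TPM ± 6.04. Of 10 genes of the IRE1 and XBP1 arm 5 reached 100 TPM, led by SEC61B (702.6 TPM ± 12.0), XBP1 itself (701.7 TPM ± 51.3) and PDIA6 (515.4 TPM ± 31.0), and ERN1, which encodes IRE1, had 13.4 TPM ± 3.09. Among 8 genes of mitochondrial protein stress 6 did, with HSPD1 at 1134 TPM ± 58.7, HSPA9 at 626.1 TPM ± 7.61 and HSPE1 at 450.1 TPM ± 49.9 highest and CLPP lowest at 66.1 TPM ± 4.37.

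The spread between libraries exceeded counting error for all 10 genes when all 3 libraries were used. The coefficient of variation, SD over mean, was 6.43% in the median of the 10, against 6.11% for 7577 genes with a mean of at least 10 TPM, and it ran between 3.04% for CEBPB and 18.0% for DDIT4. DDIT4 lay at percentile 96.8 of those 7577 genes, CHAC1 at 76.2, TRIB3 at 67.7, DDIT3 at 66.3 and CEBPB at 18.5. All 10 exceeded 2 times the counting error that their reads give, as did 53.8% of the 7577 genes, and abundant genes pass this more easily because their counting error is small. For DDIT4 the ratio was 24.2, for TRIB3 13.6, for CEBPB 2.04 and for SESN2 2.01. These values depended on 1 library and on the scaling. Without control replicate 1 the median was 2.88%, against 4.37% for the 7577 genes, and 5 of the 10 (ATF5, DDIT3, DDIT4, TRIB3 and CHAC1), as well as 39.3% of the 7577 genes, exceeded 2 times the counting error, while ASNS and CEBPB fell within counting error. With reads divided by median-of-ratios size factors in place of TPM, the median was 10.4%, against 6.07% for the 7577 genes, 7 of the 10 and 51.0% of the 7577 genes exceeded 2 times the counting error, and ASNS and SESN2 lay within counting error.

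**Figure D4:**
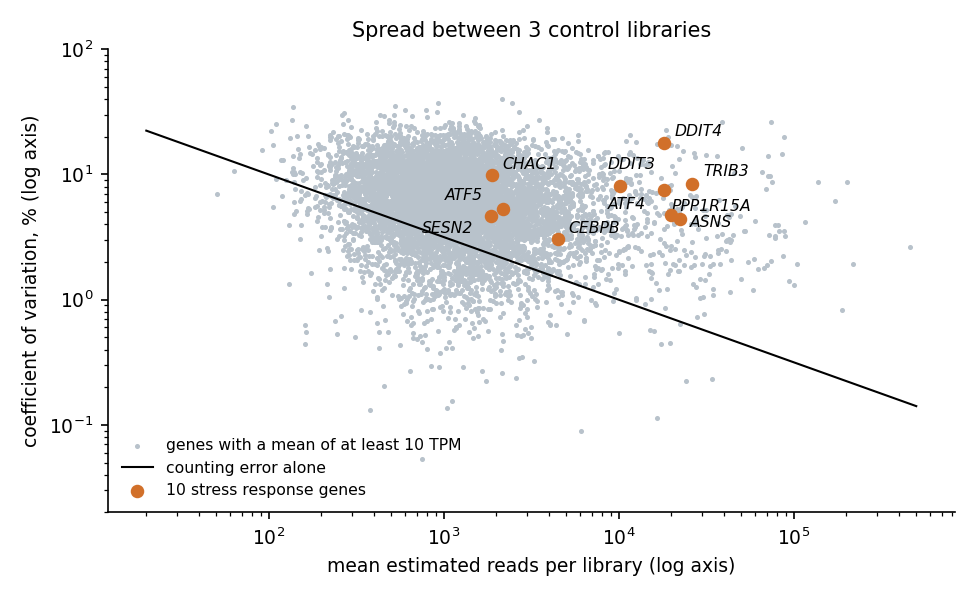
Coefficient of variation of TPM over 3 control libraries (%) against mean estimated reads per library, both on log axes, for genes with a mean of at least 10 TPM (grey), with counting error alone as a line. The 10 effector genes (orange) all lie above the line, and DDIT4 at 18.0% is highest among them.

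Of the 10 genes, 6 were lowest in the same library. ATF4, TRIB3, DDIT3, DDIT4, PPP1R15A and CHAC1 were lowest in control replicate 1, where they differed from their own means by -5.39% (ATF4) to -17.1% (DDIT4). On the TPM scale ASNS, CEBPB and SESN2 were highest there, and ATF5 was highest in replicate 2. The median difference from the gene's mean was -6.93% in replicate 1, 0.520% in replicate 2 and 2.37% in replicate 3 for the 10 genes, against 2.77%, -0.835% and -2.50% for the 7577 genes with a mean of at least 10 TPM. Of those genes 54.6% were highest in replicate 1 and 23.1% lowest. In TPM all 4 kinases and 10 of 12 genes of the ATF6 arm were highest in replicate 1. So were 9 of 10 genes of the IRE1 and XBP1 arm, 9 of 12 tRNA synthetases and 6 of 10 transporters. Of 5 C/EBP factors 4, DDIT3 and CEBPG among them, were lowest there. These shares and list counts were taken in TPM only, and whether they hold with size factors was not tested. The ratio of DDIT3 to HSPA5 within a library was 0.280, 0.343 and 0.376. Replicate 1 also had the fewest reads, and the part of depth in this was not tested. With median-of-ratios size factors in place of TPM, 8 of the 10 were lowest in replicate 1, ATF5 and CEBPB included, and 0 were highest there. The shares of all genes lowest or highest there with size factors were not computed, so these counts have no background. The higher values of ASNS, CEBPB and SESN2 in replicate 1 were seen with TPM, FPKM and reads scaled to equal totals and not with size factors. ASNS then had 22324, 22235 and 22360 scaled reads.

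**Figure D5:**
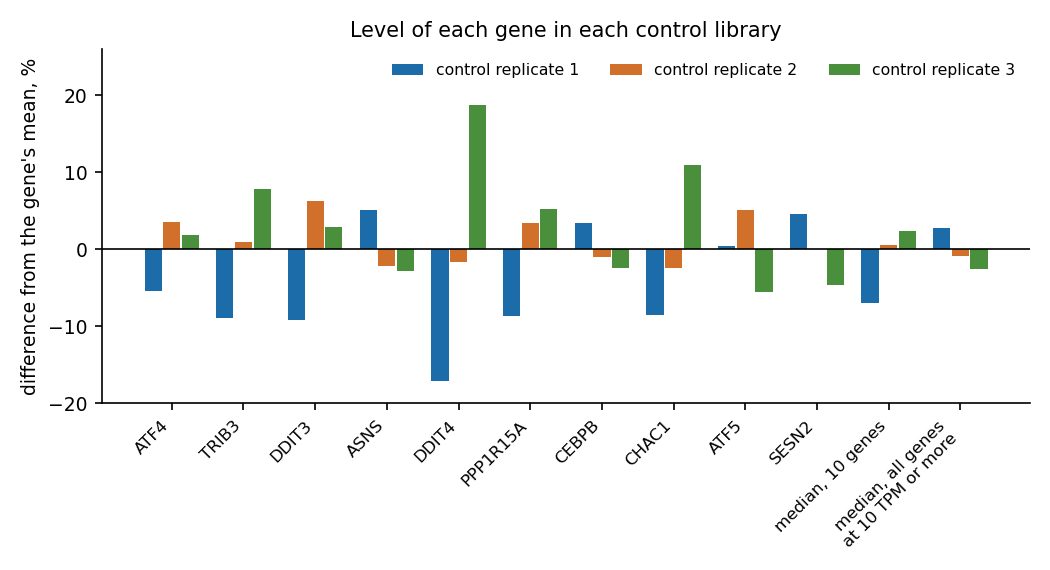
Difference of each control library from the gene's own mean over the 3 libraries (%), for the 10 genes and for the medians of the 10 and of all genes with a mean of at least 10 TPM. Bars of replicate 1 point down for 6 genes, most for DDIT4, and up for ASNS, CEBPB, SESN2 and slightly for ATF5 on this TPM scale. With size factors 8 of the 10 were lowest in replicate 1, and the share of all genes on that scale was not computed.

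The leaders of these messages were examined in GENCODE release 29, because upstream start codons are how ATF4 is known to escape the general block of translation. With 1 coding transcript a gene, 7 of the 10 genes had an ATG before the coding start, against 54.8% of 16096 genes of the table with such a transcript. An upstream reading frame that runs past the coding start in another frame was found in 3 of the 10, ATF4, ATF5 and DDIT3, and in 17.7% of all genes. The ATF4 leader of 882 bases held 7 upstream ATGs, that of TRIB3 (553 bases) 3, and those of ASNS (529 bases), ATF5 (377 bases), PPP1R15A (269 bases) and DDIT3 (209 bases) 2 each. Of the 2 in DDIT3, 1 was in frame with the coding start and had no stop before it. SESN2 (321 bases) had 1. CEBPB, DDIT4 and CHAC1 had none in leaders of 300, 201 and 20 bases. The median leader was 310.5 bases in the 10 genes and 201.0 bases in all. These counts describe annotated transcripts, and which transcripts these cells used is not known. The RNA levels of ATF4 and ATF5, which both had an overlapping frame, were 1132 and 88.1 TPM. Translation was not measured, and a link between leader and RNA level was not tested.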

How the data were processed

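The authors deposited a table of 17170 genes that gives TPM and FPKM for each library, per the file headers, both already scaled by the authors. It also holds unscaled estimated counts of reads, which the authors deposited with decimals. The submitters' processing notes name HISAT2, StringTie, DESeq2 and GRCh38 without versions or roles, and no source used here gives the annotation or filters. Per the labels' protocols, DNase-treated RNA was poly(A)-selected and made into stranded libraries at BGI. Columns were matched to samples by name. A further 12 columns, for 3 libraries whose names match no sample, were not used.

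Computed here were means, SDs, ranks, ratios within libraries and coefficients of variation of the deposited TPM, with log2 taken of TPM + 1. Counting error was taken as 1 over the square root of the mean reads. No test was run. Named were the 10 genes, all genes of the kinase, phosphatase, C/EBP and paralog lists, the 3 highest and the lowest gene of each other list, and the 5 genes nearest to ATF4, of which 1 is not reported here. SLC7A5, CTH, NEUROD1, DLL3, MARS1, NUP62 and IL4I1 were chosen after their values were seen, and marker lists are given mainly as counts. The 10 genes and the lists were chosen with earlier results of these data known. CEBPE, SLC7A3 and IGFBP1 had no value. The spread and motif steps were tested on simulated data. Alternatives were FPKM, estimated reads, another pseudocount, a filter at 1 TPM, TPM without ribosomal protein genes, size factors and leaving out each library. Python 3.11.15, numpy 2.4.6, pandas 2.3.3 and matplotlib 3.10.9 were used. Positions and promoters are from RefSeq (GRCh38.p14), leaders from GENCODE release 29.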

Additional observations from a re-analysis of the deposited data

How the results depend on the processing

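No paired analysis was possible because the knockout has no column under its stated names. Of the 10 genes, 7 were at 100 TPM in all libraries, as were 7.78% of all genes. The filter at 1 TPM could not change the 7, because every gene at 100 TPM passes it. With it the share was 11.7% of the genes left. At 100 in units of FPKM and of reads scaled to equal totals, the count was 7, beside 4.15% and 9.90% of all genes. Without each library in turn it was 7, beside 7.87% to 7.98%. TPM rescaled without ribosomal protein and MTRNR2L genes, a scaling that raises every other value, gave 9, beside 10.8%. The median level above all genes, 6.52 on the log2 scale, was 5.38 with reads scaled to equal totals and 5.23 against genes at 1 TPM or more only, since that filter removes low genes. It was 6.40 to 6.61 without each library and 6.39 to 6.69 under the other settings. The median spread of 6.43% was 10.4% with reads divided by size factors, for which the cause was not tested, and 2.88% to 7.71% without each library, lowest without control replicate 1. The median rank of 178.5 was 220.0 with scaled reads, which are not divided by length, and 175.0 to 188.0 without each library. Of the 10 single ranks 9 moved by more than their SD over libraries with reads scaled to equal totals and 0 with FPKM or without a library. Those counts of 0 were nearly fixed in advance and say little about the ranks. FPKM differs from TPM only by a factor per library, and leaving out 1 of 3 libraries moves a mean by less than the SD. For the next counts the alternatives were chosen after seeing the data. Genes lowest in replicate 1 numbered 6, or 8 with size factors, and genes highest there 3, or 0 with size factors. In TPM 23.1% of the 7577 genes with a mean of at least 10 TPM were lowest there and 54.6% highest. Those shares were not computed with size factors. Genes with a spread over 2 times the counting error numbered 10, and 7 with size factors, beside 53.8% and 51.0% of the 7577 genes. Without control replicates 1, 2 and 3 in turn they numbered 5, 9 and 7, beside 39.3%, 57.3% and 38.9%, fewest of the 10 without control replicate 1. Depth limits mainly the listed genes under 1 TPM, such as CBS with at most 2 reads.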
